A study of Homo sapiens with 8 samples.

Results

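This section describes 9 genes of negative feedback on stress and growth signalling: 6 MAPK phosphatases (DUSP1, DUSP4, DUSP5, DUSP6, DUSP8 and DUSP10) and the 3 RNA-binding proteins ZFP36, ZFP36L1 and ZFP36L2. They were picked by Ensembl gene ID from a footprint table that lists 19580 genes with 1 transcript each, and all 9 IDs were in it. Ribosome footprints, the stretches of mRNA that a ribosome shields from nuclease, were sequenced from HAP1 cells, an adherent near-haploid human line derived from chronic myeloid leukaemia cells. The 4 groups were RNF14 knockout after 30 min of recovery, RNF14 knockout at 0 min, wild type (WT) after 30 min and WT at 0 min, with 2 biological replicates each. RNF14 is a ubiquitin ligase with a role at stalled ribosomes. All 8 libraries, WT included, came from cells given 5 uM 4-thiouridine (4SU) for 18 h and then 6 kJ/m2 of UVA, which together crosslink RNA to bound proteins. Whether the knockout is 1 clone is not given in the sources used here. RNF14's own footprints and marker genes of the line were not analysed here, since the gene table used held no Ensembl IDs.

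The phosphatase genes are DUSP1 (ENSG00000120129, transcript of 2013 nt, gene at chr5:172768096-172771195), DUSP4 (ENSG00000120875, 2959 nt), DUSP5 (ENSG00000138166, 2477 nt, chr10:110497907-110511533), DUSP6 (ENSG00000139318, 1959 nt, chr12:89347235-89352501), DUSP8 (ENSG00000184545, 4455 nt, chr11:1554051-1572848) and DUSP10 (ENSG00000143507, 2589 nt, chr1:221701424-221742089). The zinc finger genes are ZFP36 (ENSG00000128016, 1747 nt, chr19:39406847-39409407), ZFP36L1 (ENSG00000185650, 3017 nt, chr14:68787655-68796243) and ZFP36L2 (ENSG00000152518, 3693 nt, chr2:43222402-43226606). Gene coordinates are RefSeq's on GRCh38.p14. The submitters' processing notes name hg38, which is GRCh38, without a patch.

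MAP kinases (ERK, JNK and p38) relay growth and stress signals by phosphorylation. Collided ribosomes are known to switch on p38 and JNK through the kinase ZAK. The DUSP enzymes remove phosphates from both the threonine and the tyrosine that activate a MAP kinase, and several of their genes are themselves induced by MAP kinase signalling, so the signal limits itself. ZFP36 proteins bind AU-rich elements in mRNAs and recruit deadenylases. They shorten the life of many induced mRNAs, that of DUSP1 among them, and p38 signalling restrains ZFP36 itself.

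Many stress-induced promoters carry a cAMP response element (CRE), which CREB and ATF family proteins can bind. The promoter of DUSP1, on chromosome 5 at chr5:172771196-172771445 on the minus strand of GRCh38.p14, is shown because DUSP1 was the 1 member whose footprints rose past the threshold. It covers the 250 bases before the RefSeq start. Capitals mark the full CRE TGACGTCA, the shorter core TGACG on either strand, and the TATA box TATAAA.
DUSP1 promoter: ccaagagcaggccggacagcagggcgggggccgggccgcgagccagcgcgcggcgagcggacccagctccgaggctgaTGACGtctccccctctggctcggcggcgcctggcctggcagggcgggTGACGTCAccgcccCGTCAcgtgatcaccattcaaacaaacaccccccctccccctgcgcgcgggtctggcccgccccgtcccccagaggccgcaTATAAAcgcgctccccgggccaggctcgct

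The full CRE lay from base -125 to -118 and the TATA box from -30 to -25, counted from the start. The core TGACG matched 4 times on the 2 strands, of which 2 matches lie inside the full CRE. Promoters were listed for 6 of the 9 genes. A full CRE was also found in DUSP8, at 2 places, and in 1 of the 2 listed promoters of ZFP36L1. Unlike that of DUSP1, these promoter windows lie inside the gene spans given above, before internal starts. The other ZFP36L1 window, which borders the outer end of the gene, held no full CRE. Short stretches around the 4 elements are shown to set them side by side, with the element in capitals.
DUSP1: agggcgggTGACGTCAccgccccg
DUSP8, first: ggctccgcTGACGTCAcctgcccc
DUSP8, second: gctgcaggTGACGTCAggggcttt
ZFP36L1: ggaatgagTGACGTCAcagccgcg

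They lie at chr5:172771305-172771328, chr11:1572374-1572397, chr11:1572330-1572353 and chr14:68793453-68793476, all on the minus strand. Over 35116 RefSeq promoter windows of the same length, 1.65% held the full CRE on either strand, 21.2% the core and 10.7% the TATA box. No full CRE was found in the listed windows of DUSP6, DUSP10 and ZFP36. None of the listed member windows held a CArG box, the motif that serum response factor binds, which 1.16% of all windows held. A match describes these letters and is not a binding site measured here.

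Footprints on the 9 transcripts were few. The table gives RPKM, in which reads are scaled by the length of the transcript and the depth of the library, and whole reads could be recovered from it. Library totals ran from 323946 to 717828 reads at 30 min and from 778683 to 1241975 at 0 min, so every library at 30 min was shallower than every library at 0 min. The part of depth in the results below was not tested. The 9 transcripts together held between 39 reads, in knockout at 30 min replicate 1, and 198 reads, in knockout at 0 min replicate 1. A test was fitted to the 11920 transcripts that averaged at least 1 RPKM, and 7 of the 9 members passed that filter; DUSP4 and DUSP6 did not. Without matched RNA, a change in footprints can reflect RNA level, translation or the number of cells that make the transcript, among other things, and these cannot be told apart.

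**Figure D1:**
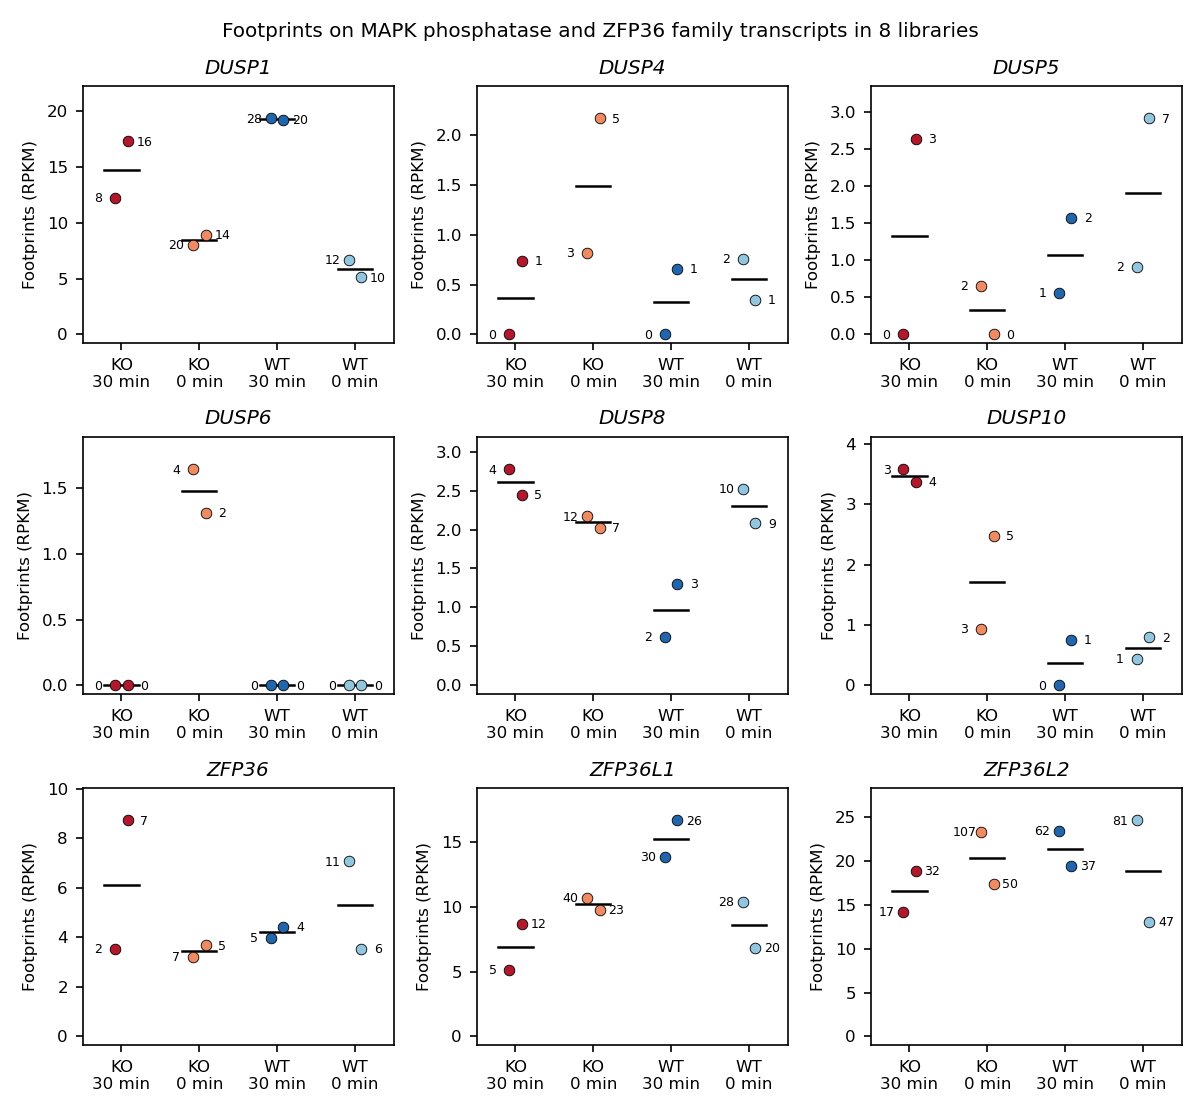
Footprint level (RPKM, linear axis) of each of the 9 transcripts in the 8 libraries, with 1 point per library, its recovered reads printed beside it, and a bar at the mean of the 2 replicates. For DUSP1 both libraries at 30 min lie above both at 0 min in each genotype, while the other 5 phosphatases rest on 12 or fewer reads per library.

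DUSP1, also called MKP-1, is a nuclear phosphatase of p38, JNK and ERK and a classical early response gene. Its footprints rose with recovery in WT and averaged over the genotypes. DUSP1 had 12.3 and 17.3 RPKM in knockout at 30 min, on 8 and 16 reads, against 8.0 and 8.93 RPKM in knockout at 0 min, on 20 and 14 reads. In WT it had 19.4 and 19.2 RPKM at 30 min, on 28 and 20 reads, against 6.69 and 5.11 RPKM at 0 min, on 12 and 10 reads. Every level at 30 min exceeded every level at 0 min, and the 2 WT libraries at 30 min were the highest of the 8. Among the 4 libraries at 30 min the lowest level, 12.3 RPKM, was in the shallowest library.

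The WT recovery of DUSP1 was a log2(RPKM + 1) change of 1.57 (SE 0.30, limma adjusted p = 0.0230), with means of 19.3 ± 0.0975 RPKM at 30 min and 5.90 ± 1.12 RPKM at 0 min (SD, n = 2 each). The SD at 30 min understates counting error: the ratio of shares between these 2 replicates, 1.01, had a counting interval from 0.547 to 1.89. With voom on recovered reads the log2 change was 1.70 and its SE was larger, 0.43 (limma adjusted p = 0.00737). In reads, 48 of 1234238 against 22 of 1862342 gave a share 3.29 times higher, with an exact 95% counting interval from 1.95 to 5.73. In this contrast 59 of the 11920 tested transcripts had a larger change. In the knockout the means were 14.8 ± 3.56 RPKM at 30 min and 8.47 ± 0.659 RPKM at 0 min (SD, n = 2 each). This change, 0.72 on the log2 scale (SE 0.30, 95% interval 0.06 to 1.38, limma adjusted p = 0.234), did not pass the threshold of 0.05. With voom on recovered reads the knockout's 95% interval ran from -0.03 to 1.765. With RPKM rescaled to the same sum in each library (TPM) it ran from -0.09 to 1.35, so both included 0. With the other scalings, pseudocounts and filters, a replicate block or no trend it stayed above 0. The knockout's read share was 1.82 times higher at 30 min, with a counting interval from 1.03 to 3.16. Averaged over the genotypes, 4 libraries against 4, the log2 change was 1.14 (SE 0.21, limma adjusted p = 0.0126). Intervals on reads cover counting error only.

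Whether DUSP1 recovered less in the knockout was tested by the difference of the recoveries. It was -0.85 on the log2 scale, knockout minus WT, with an interval from -1.78 to 0.09 (limma adjusted p = 0.409), so no difference was detected, and one of more than a log2 unit is within the interval. DUSP1 was lower in knockout than in WT at 30 min, by -0.38 (limma adjusted p = 0.665), and higher at 0 min, by 0.46 (limma adjusted p = 0.528); neither passed.

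The WT call for DUSP1 rests on few libraries. Its limma adjusted p was 0.122 without WT 30 min replicate 1, 0.139 without its replicate 2 and 0.120 without WT 0 min replicate 2. It was 0.0560 and 0.0562 when knockout 0 min replicate 1 or 2 was left out. The averaged call was likewise lost when WT 30 min replicate 1 or 2 was left out, at 0.0512 and 0.0579, and when knockout 0 min replicate 1 or 2 was left out, at 0.0729 and 0.0591. Its log2 change kept the same sign in all 18 alternative fits of each contrast.

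**Figure D2:**
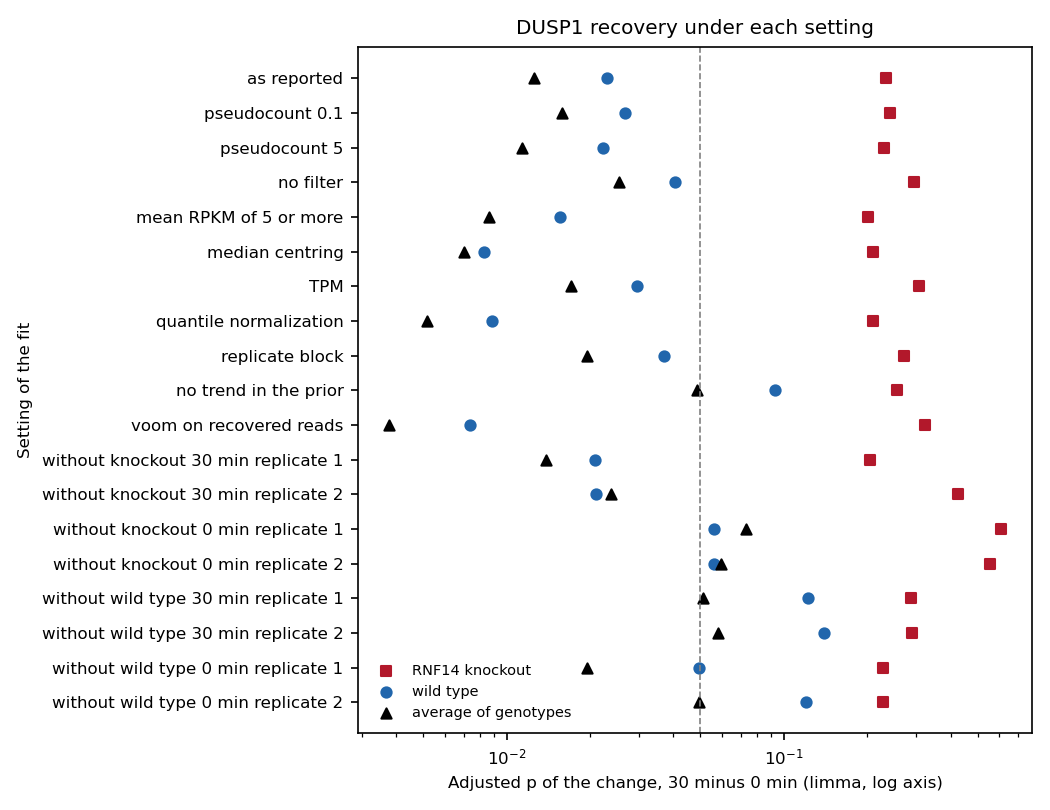
Adjusted p of the DUSP1 change, 30 minus 0 min, on a log axis, for each setting of the fit, with squares for RNF14 knockout, circles for wild type and triangles for the average of the genotypes. The dashed line is the threshold of 0.05. Wild type crosses it in 6 of the 18 alternatives and the average in 4, and the knockout squares lie at 0.202 or above throughout.

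DUSP1 was the only member called in WT recovery, 1 of 7 tested, where 3.23% of all tested transcripts were called. It was also the only one in the averaged recovery, where 7.79% of all were called. In knockout recovery 0 of 7 members were called by limma, against 1.97% of all transcripts. At an unadjusted p below 0.05 there were 1 of 7 members, DUSP1, and 18.4% of all transcripts. The limma adjusted p of the other 6 ran from 0.225 to 0.828 in WT, from 0.431 to 0.836 in the knockout and from 0.645 to 0.960 for the average. The median log2 change of the 7 was 0.57 in the knockout, with 5 of 7 above 0, and -0.22 in WT, with 3 of 7 above 0. The knockout median was the value of DUSP5, on 3 reads against 2, and the 5 include DUSP10, which passed the filter only through the knockout. Over only the 3 members that averaged at least 5 RPKM, the median was -0.28 in the knockout and 0.78 in WT. Both signs were thus opposite, with 1 of 3 above 0 in the knockout and 3 of 3 in WT. The medians over all tested transcripts were -0.12 in the knockout and -0.26 in WT. The members' medians depended on the setting: the knockout's was 0.03 without knockout 30 min replicate 2 and 0.36 and 0.21 when knockout 0 min replicate 1 or 2 was left out. That of WT was -0.12 without WT 0 min replicate 2, and it was above 0 without WT 30 min replicate 1 (0.10), without WT 0 min replicate 1 (0.20), with median centring (0.06) and with quantile normalization (0.10).

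**Figure D3:**
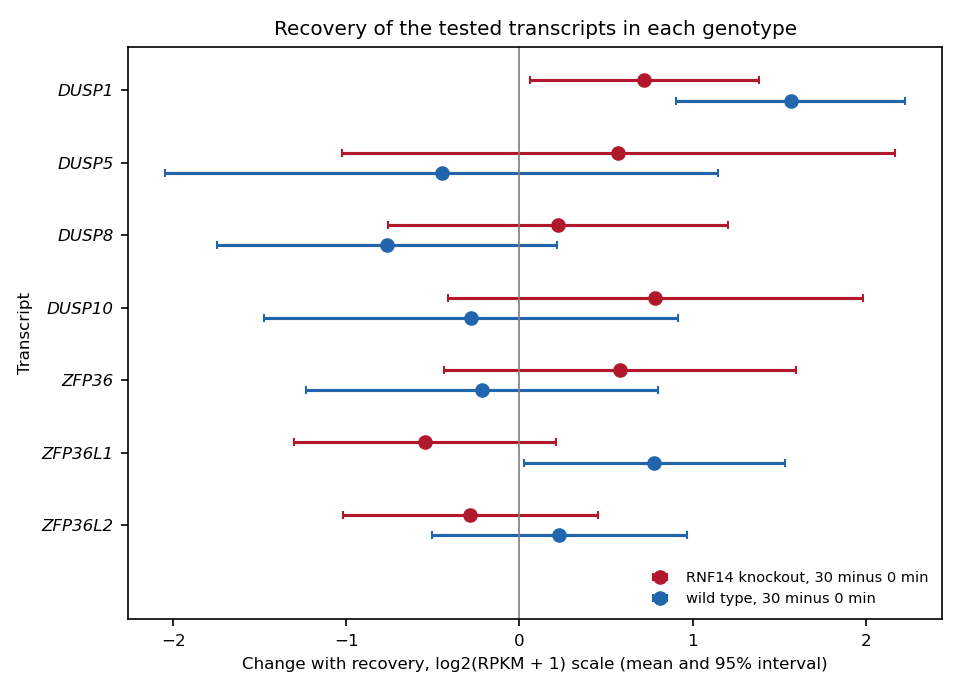
Change of each tested transcript on the log2(RPKM + 1) scale, 30 minus 0 min, with points for the fitted means and bars for 95% intervals that are not adjusted for the number of transcripts, in RNF14 knockout (red, upper) and wild type (blue, lower). The interval of DUSP1 lies above 0 in both genotypes in this fit. That of ZFP36L1 lies above 0 in wild type, while in the knockout its point is below 0 and its interval crosses 0.

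The other nuclear phosphatases, DUSP4 (MKP-2) and the ERK-specific DUSP5, were close to the limit of detection. DUSP4 had 0 and 1 reads in knockout at 30 min, 3 and 5 in knockout at 0 min, 0 and 1 in WT at 30 min, and 2 and 1 in WT at 0 min. DUSP5 had 0 and 3 reads in knockout at 30 min, 2 and 0 in knockout at 0 min, 1 and 2 in WT at 30 min, and 2 and 7 in WT at 0 min. Replicates of DUSP5 spread as widely as the groups, from 0 to 2.64 RPKM within knockout at 30 min alone. At 0 min DUSP5 was lower in both knockout libraries, at 0.650 and 0 RPKM, than in both WT libraries, at 0.907 and 2.91 RPKM, on 2 reads against 9 (limma adjusted p = 0.540). DUSP5 averaged 0.822 RPKM over the knockout libraries and 1.485 RPKM over the WT libraries. It thus passed the filter of 1 RPKM only through WT, and this comparison draws on the values that admitted it.

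DUSP6 (MKP-3), the cytoplasmic phosphatase of ERK, had reads in 1 group only. It had 4 and 2 reads in knockout at 0 min, which is 1.64 and 1.31 RPKM, and 0 reads in the other 6 libraries. A count of 0 allows up to 3 reads, or 4.73 and 3.33 RPKM in knockout at 30 min, 2.13 and 2.97 RPKM in WT at 30 min, and 1.72 and 1.58 RPKM in WT at 0 min. All of these limits but 1 lie above both knockout values at 0 min, and the remaining one, 1.58 RPKM, lies between them, so single libraries did not resolve a difference. Pooled over both replicates at 0 min, 6 of 2020658 reads in knockout against 0 of 1862342 in WT gave a ratio of shares with an exact 95% counting interval from 1.085 upwards. For recovery in the knockout, 0 of 783173 reads at 30 min against 6 of 2020658 at 0 min gave an interval from 0 to 2.19. Fitted without the filter, DUSP6 had a limma adjusted p of 0.0577 for knockout recovery and 0.164 for knockout against WT at 0 min. The 6 libraries at 0 add no spread to this fit, so these p-values do not measure the counting error.

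DUSP8 and DUSP10 (MKP-5) act mainly on JNK and p38. DUSP8 had 2.77 and 2.44 RPKM in knockout at 30 min, on 4 and 5 reads, against 2.17 and 2.02 RPKM in knockout at 0 min, on 12 and 7 reads. In WT it had 0.625 and 1.30 RPKM at 30 min, on 2 and 3 reads, against 2.52 and 2.08 RPKM at 0 min, on 10 and 9 reads. Both WT libraries at 30 min were thus the lowest of the 8, and the other 6 lay between 2.02 and 2.77 RPKM. Its WT change was -0.77 on the log2 scale (SE 0.44, limma adjusted p = 0.351), and 5 reads against 19 gave a ratio of shares of 0.397 with a counting interval from 0.116 to 1.10.

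DUSP10 was higher in all 4 knockout libraries than in all 4 WT libraries. It had 3.58 and 3.36 RPKM in knockout at 30 min, on 3 and 4 reads, against 0 and 0.748 RPKM in WT at 30 min, on 0 and 1 reads. At 0 min it had 0.933 and 2.48 RPKM in knockout, on 3 and 5 reads, against 0.434 and 0.795 RPKM in WT, on 1 and 2 reads. Over both times 15 reads in knockout against 4 in WT gave a share 4.14 times higher, with a counting interval from 1.32 to 17.1. The limma difference at 30 min was 1.76 (SE 0.54, adjusted p = 0.269), and at 0 min the limma adjusted p was 0.608, so no difference passed the threshold. Such a separation of 4 knockout from 4 WT libraries, in either direction, was seen in 4.34% of all tested transcripts and in 1 of the 7 members. DUSP10 averaged 2.59 RPKM over the knockout libraries and 0.494 RPKM over the WT libraries. It thus passed the filter of 1 RPKM only through the knockout. Its comparisons between genotypes, and its recovery in the knockout, draw on the values that admitted it.

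The ZFP36 family held most of the reads, 433 on ZFP36L2, 184 on ZFP36L1 and 47 on ZFP36 over the 8 libraries. ZFP36 (tristetraprolin), the best known destabiliser of AU-rich cytokine mRNAs and itself an early response gene, had 3.53 and 8.73 RPKM in knockout at 30 min, against 3.23 and 3.68 RPKM in knockout at 0 min. In WT it had 3.99 and 4.43 RPKM at 30 min, against 7.07 and 3.53 RPKM at 0 min. The groups overlapped in both genotypes, with 2 to 11 reads per library.

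ZFP36L1 had its highest levels in WT after recovery. It had 5.12 and 8.66 RPKM in knockout at 30 min, on 5 and 12 reads, against 10.7 and 9.79 RPKM in knockout at 0 min, on 40 and 23 reads. In WT it had 13.9 and 16.7 RPKM at 30 min, on 30 and 26 reads, against 10.4 and 6.82 RPKM at 0 min, on 28 and 20 reads. The replicates did not overlap between times in either genotype, and the direction was opposite. The log2 change was -0.55 (SE 0.34, limma adjusted p = 0.431) in the knockout and 0.78 (SE 0.34, limma adjusted p = 0.225) in WT, and neither passed.

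The difference of these recoveries, knockout minus WT, was -1.32 (SE 0.48, 95% interval -2.39 to -0.26). Its unadjusted p was 0.0198 and its limma adjusted p 0.294. At 30 min ZFP36L1 was lower in knockout than in WT, by -1.08 on the log2 scale (SE 0.34, limma adjusted p = 0.284), and 17 reads against 56 gave a ratio of shares of 0.478 with a counting interval from 0.261 to 0.836. Without knockout 30 min replicate 1, the shallowest library, the difference of recoveries was -0.99 and the genotype difference at 30 min -0.75. None of the 18 alternative fits called ZFP36L1 in any of these comparisons.

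ZFP36L2 held the most reads of the 9 in every group, and no change with recovery was detected. It had 14.2 and 18.9 RPKM in knockout at 30 min, against 23.3 and 17.4 RPKM in knockout at 0 min. In WT it had 23.4 and 19.4 RPKM at 30 min, against 24.6 and 13.1 RPKM at 0 min. The times overlapped in both genotypes. Over both genotypes 148 reads at 30 min against 285 at 0 min gave a ratio of shares of 0.9995, with a counting interval from 0.814 to 1.22. The WT replicates at 0 min differed from each other by a ratio of 1.88, with a counting interval from 1.30 to 2.75, so replicate spread exceeded counting error there.

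Between the genotypes 0 of 7 members were called by limma at either time, where 0.126% of all tested transcripts were called at 30 min and 0.168% at 0 min. An unadjusted p below 0.05 was reached at 30 min by 2 of 7, DUSP10 and ZFP36L1, and by 10.9% of all transcripts. At 0 min it was reached by 0 of 7 and by 13.6% of all. For the difference in recovery 0 of 7 members and 0.00839% of all transcripts were called, and 1 of 7, ZFP36L1, and 13.3% of all had an unadjusted p below 0.05.

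Separation of 2 replicates from 2 was common over all transcripts and is read against that. In knockout recovery 4 of 7 members did not overlap between times, DUSP1, DUSP8 and DUSP10 above and ZFP36L1 below, as did 49.5% of all tested transcripts. In WT recovery 3 of 7 did not overlap, DUSP1 and ZFP36L1 above and DUSP8 below, against 52.9% of all. Between genotypes 5 of 7 did not overlap at 30 min, against 38.5% of all, and 3 of 7 at 0 min, against 50.9%. Both genotype counts include DUSP10, and that at 0 min also DUSP5, which passed the filter only through the genotype where they were high. The count for knockout recovery includes DUSP10 too. Its group mean was highest in knockout at 30 min, at 3.47 RPKM, so that count also draws on values that admitted it. Over both genotypes, 4 libraries against 4, DUSP1 alone of the 7 did not overlap between times, as did 13.2% of all.

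The order of levels per length put ZFP36L2 first in all 4 groups. DUSP1 stood second at 30 min, with 14.8 RPKM in knockout and 19.3 RPKM in WT. At 0 min it stood behind both ZFP36L2 and ZFP36L1, with 8.47 RPKM in knockout and 5.90 RPKM in WT. In knockout at 30 min DUSP1 and ZFP36L2 overlapped, and in WT at 0 min DUSP1 and ZFP36 overlapped. In WT at 30 min the lowest ZFP36L2 value was 19.40 RPKM and the highest DUSP1 value 19.38 RPKM. In WT at 0 min the lowest ZFP36L1 value was 6.82 RPKM and the highest DUSP1 value 6.69 RPKM. Both gaps are smaller than 1 read, so these ranks were not resolved. By mean RPKM over the 8 libraries, ZFP36L2 ranked 4319th, DUSP1 6085th and ZFP36L1 6736th of 19580 transcripts, and DUSP5, DUSP4 and DUSP6 ranked 11741st, 12351st and 13143rd.

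Likeness to DUSP1 across the libraries is given as a description. Pearson's r of log2(RPKM + 1) with DUSP1 over the 8 libraries, which differ in depth along with recovery time, was 0.45 for ZFP36L1, 0.24 for ZFP36L2 and 0.23 for ZFP36. It was 0.06 for DUSP10, -0.04 for DUSP5, -0.28 for DUSP4, -0.32 for DUSP6 and -0.54 for DUSP8. Among 9134 others that averaged at least 5 RPKM, the 3 most like DUSP1 had r of 0.995, 0.994 and 0.987, and they were 534, 1363 and 1683 nt long. They carry no name here.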

How the data were processed

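The authors deposited 1 table of RPKM values, with a length for each transcript. Per the submitters' processing notes, cutadapt, STAR 2.7.10a and hg38 were used. The counted region, the choice of transcript and the handling of reads that match several transcripts are stated in none of the sources used here. Within a tolerance of 0.05, 100% of values above 0 were whole multiples of 1 read. Limma 3.58.1 in R 4.3.3 (lmFit, contrasts.fit, eBayes with trend) was run on log2(RPKM + 1), two-sided, over all transcripts that averaged at least 1 RPKM. One fit of 4 group means left 4 residual degrees of freedom, and p-values were adjusted by Benjamini-Hochberg over all of them at a threshold of 0.05. Intervals of the fit use limma's total degrees of freedom, which add those borrowed from all transcripts. Fold changes on this scale understate those of low transcripts. Ratios of reads carry exact 95% Clopper-Pearson intervals.

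Members and lists were chosen with earlier results of these data known. Names of the 9 members come with their IDs; 0 rows of the RefSeq gene table held an Ensembl ID, so lists of other MAPK pathway and deadenylase genes, the markers of the line and RNF14 were not analysed here. The 9 members are all described, and the 3 transcripts closest to DUSP1 by Pearson's r are given by length only. The column name of knockout 30 min replicate 1 has an unexplained suffix and was assigned by the rest of the name. RefSeq promoters are of GRCh38.p14. Alternatives were pseudocounts of 0.1 and 5, other filters and scalings, a replicate block, no trend, voom on recovered reads, and leaving out each library. Python 3.11.15, pandas 2.3.3, scipy 1.17.1 and matplotlib 3.10.9 were used.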

Additional observations from a re-analysis of the deposited data

Results flagged for a closer look

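For 3 members the libraries of one comparison lay wholly on opposite sides in the 2 genotypes or times. ZFP36L1 was lower at 30 min than at 0 min in both knockout libraries and higher in both WT libraries, with a difference of recoveries of -1.32 on the log2 scale, knockout minus WT (limma adjusted p = 0.294). DUSP8 was higher at 30 min in both knockout libraries and lower in both WT libraries, with a difference of 0.99 (limma adjusted p = 0.512), on 2 to 12 reads per library. Such opposite recoveries were found in 8.82% of the 11920 tested transcripts. DUSP1 was lower in knockout than in WT in both libraries at 30 min and higher in both at 0 min, with a difference of recoveries of -0.85 (limma adjusted p = 0.409), a pattern that 10.9% of tested transcripts showed. None of the 3 differences passed the threshold.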

How the results depend on the processing

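DUSP1 stayed the only member called under the alternatives, and some ended its call. In WT recovery the count of members called was 0 instead of 1 without a trend in the prior variance, where the DUSP1 change was still 1.57 (limma adjusted p = 0.0929). Leaving out 1 library at a time gave 0 to 1 called members, with a DUSP1 change from 1.40 to 1.73. Averaged over genotypes it gave 0 to 1 called members, with a change from 1.03 to 1.26. Over all 18 alternatives the DUSP1 adjusted p ran from 0.00737 to 0.139 in WT, from 0.00375 to 0.0729 for the average and from 0.202 to 0.610 in the knockout, where its change ran from 0.49 to 0.95. With a replicate block the WT change of DUSP1 was 1.57 (limma adjusted p = 0.0368) and 1 member was called. Deviations of same-numbered libraries correlated between -0.0794 and 0.0669 over pairs of groups. Counting error can also keep such correlations low, so whether same-numbered libraries were prepared together cannot be told from them. For the 40 fitted differences that were not called, 0 of 696 alternative values passed the threshold and 40 had another sign, in 15 of the differences. Calls over all transcripts ranged over the alternatives from 2 to 1352 in WT recovery, against 385 as reported, from 0 to 551 in knockout recovery, against 235, and from 99 to 2140 for the average, against 929. They ranged from 8 to 124 for genotype at 30 min, against 15, from 3 to 831 at 0 min, against 20, and from 1 to 123 for the difference in recovery, against 1. Depth limits all members: for DUSP1 in knockout 30 min replicate 1 a single read is 1.53 RPKM.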
